A study of Homo sapiens with 6 samples.

Results

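The genes described here encode 10 factors that travel with RNA polymerase II (Pol II) through genes: SUPT4H1, SUPT5H, SUPT6H, SUPT16H, PAF1, CTR9, CDC73, LEO1, RTF1 and ELL2. Their members in the data are poly(A) 3′-seq peaks, which are places where reads pile up because polyadenylated RNAs end there or because the primer annealed to an A-rich stretch. A peak was taken when its summit lay in the Gencode body of one of the 10 genes or within 4000 bp past its 3′ end, which gave 140 of the 200023 peaks in the list. Of these, 116 had a −log10 q-value of at least 5, and these 116 are described below. The libraries came from IMR-32 cells, an established human neuroblastoma (NB) cell line, in 3 groups of 2 replicates each. The cells had been exposed to the vehicle DMSO, to THZ531 at 400 nM for 2 h, or to the same dose for 6 h. The compound blocks CDK12 and CDK13, kinases of the C-terminal domain of elongating Pol II, by binding them covalently. Because the peaks were called once on merged reads, each value below belongs to a pool of libraries. The merged samples are not listed in the study, and the pool is taken here to be these 6. The study also made such libraries from Kelly NB cells and from cells depleted of CDK12 or CDK13. From this list DMSO and THZ531 cells could not be compared and no replicate error could be had, and the coverage tracks that the labels name were not analysed here. Intervals given for reads are exact 95% Poisson intervals and those given for shares are 95% Wilson intervals, and both cover counting error only.

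Pol II needs partners to move through nucleosomes and to stay engaged over long distances. SPT4 and SPT5 form DSIF, a clamp on the polymerase that first holds it near the promoter and, once phosphorylated, helps it along. SPT6 and the FACT complex take nucleosomes apart ahead of Pol II and rebuild them behind it, the PAF complex rides on the polymerase and promotes histone modification and 3′ end formation, and ELL2 raises the rate of elongation as part of the super elongation complex. An mRNA normally ends when the cleavage and polyadenylation machinery reads a polyadenylation signal (PAS), most often AATAAA, and cuts a short distance downstream. Use of such a signal inside an intron, called premature cleavage and polyadenylation (PCPA), yields a truncated transcript, and U1 snRNP bound to 5′ splice sites is known to hold it back.

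Sequences at 3 kinds of peak are shown as chosen examples, and many peaks belonged to none of them. Reads in this assay start at the poly(A) junction, so the edge of a peak nearest the gene's 3′ end (the 3′ edge) marks the candidate cleavage site. Reads were extended to 100 bp before peak calling. In 11 of the 116 peaks (9.48%, 5.38 to 16.2), against 11.1% over all protein-coding genes, the summit lay over 100 bp from the 3′ edge, so the reads counted at those summits end elsewhere than at the edge. The first set shows the ends of the mature mRNAs on the gene strand, GRCh38, 5′ to 3′, in windows of 30 bases that hold the PAS hexamer, which is in capitals. These windows end at the 3′ edge, except those of SUPT6H and SUPT16H, which start at the hexamer 31 and 42 bp before the edge.
CDC73 canonical end, chr1:193254777-193254806, plus strand: taatgaAATAAAactagttttattgccaaa
CTR9 canonical end, chr11:10779718-10779747, plus strand: cataatAATAAAattcttttaccaactttt
RTF1 canonical end, chr15:41483529-41483558, plus strand: ttgtaAATAAAtgttatgccattttaacaa
ELL2 canonical end, chr5:95885094-95885123, minus strand: gttcAATAAAaatgttaactttgcaattct
LEO1 canonical end, chr15:51938024-51938053, minus strand: ttaattgtAATAAAacaatttaaaagcaag
SUPT4H1 canonical end, chr17:58345180-58345209, minus strand: aagtatTATAAAggtgaaatacttttgctc
SUPT16H canonical end, chr14:21351483-21351512, minus strand: AATAAActgggttttttttgttgtttgttt
SUPT6H end in the 3′ UTR, chr17:28702211-28702240, plus strand: AATAAAcagtgtttctattgagctcttgcc

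The second set shows intronic peaks with the same arrangement, an AATAAA shortly before the edge. The 20 bases after the edge had 40%, 10%, 45% and 60% A, in the order shown. Each window has 40 bases before the 3′ edge and 40 after it, with the hexamer in capitals.
CDC73 intron 2, chr1:193127405-193127484, plus strand: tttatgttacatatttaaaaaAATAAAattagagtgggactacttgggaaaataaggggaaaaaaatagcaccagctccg
CDC73 intron 10, chr1:193169725-193169804, plus strand: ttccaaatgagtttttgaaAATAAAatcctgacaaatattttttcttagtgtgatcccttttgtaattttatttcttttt
CDC73 intron 13, chr1:193213002-193213081, plus strand: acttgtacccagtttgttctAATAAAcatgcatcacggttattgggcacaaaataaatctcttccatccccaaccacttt
CTR9 intron 6, chr11:10761706-10761785, plus strand: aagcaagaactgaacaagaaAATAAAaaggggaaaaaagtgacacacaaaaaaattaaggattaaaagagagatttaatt

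The third kind is an intronic peak that holds no hexamer and stops at a run of A in the genome, and 1 example is shown with the 20 bases after the edge in capitals. The bases before the run resemble the 3′ end of the Alu repeat, which itself ends in a run of A.
SUPT16H intron 15, chr14:21361287-21361366, minus strand: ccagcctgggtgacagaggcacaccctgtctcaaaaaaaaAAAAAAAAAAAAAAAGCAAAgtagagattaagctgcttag

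The labelled cell type was checked first. All 12 NB and sympathetic lineage markers, such as MYCN and CHGA, had a peak at an annotated transcript end, with tallest peaks between 19 and 123 reads at the summit. Of 11 markers of fibroblasts, blood, epithelium and endothelium, 3 had one (COL1A1, PDGFRB and EPCAM), none above 15 reads. Reads at the summit were recovered from the peak caller's statistics. They count distinct start positions of reads, at most 100 on each strand, so they saturate at 200 and are not transcript abundances. Depth per library was unknown.

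Across the 10 genes, introns held more peaks than any other class. By the position of the summit, 30 of the 116 peaks (25.9%, 18.8 to 34.5) were at an annotated transcript end, 24 (20.7%, 14.3 to 28.9) in an exon, 58 (50%, 41.0 to 59.0) in an intron and 4 (3.45%, 1.35 to 8.53) past the gene. Over all protein-coding genes 20.2% of peaks were at a transcript end and 64.0% were intronic. Another gene also covered or ended at the summit of 24 peaks (20.7%, 14.3 to 28.9), against 27.9% over all. Of the 30 transcript-end peaks, 8 sat at the end of the canonical transcript and 22 at another annotated end. A canonical-end peak was found in 8 of the 10 genes, against 69.6% of protein-coding genes with any peak. The tallest peaks were not evenly spread over the classes. Transcript-end peaks had a median of 21 reads (range 9 to 64) and intronic peaks a median of 16.5 reads (7 to 71), against medians of 19 and 12 reads over all protein-coding genes.

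**Figure D1:**
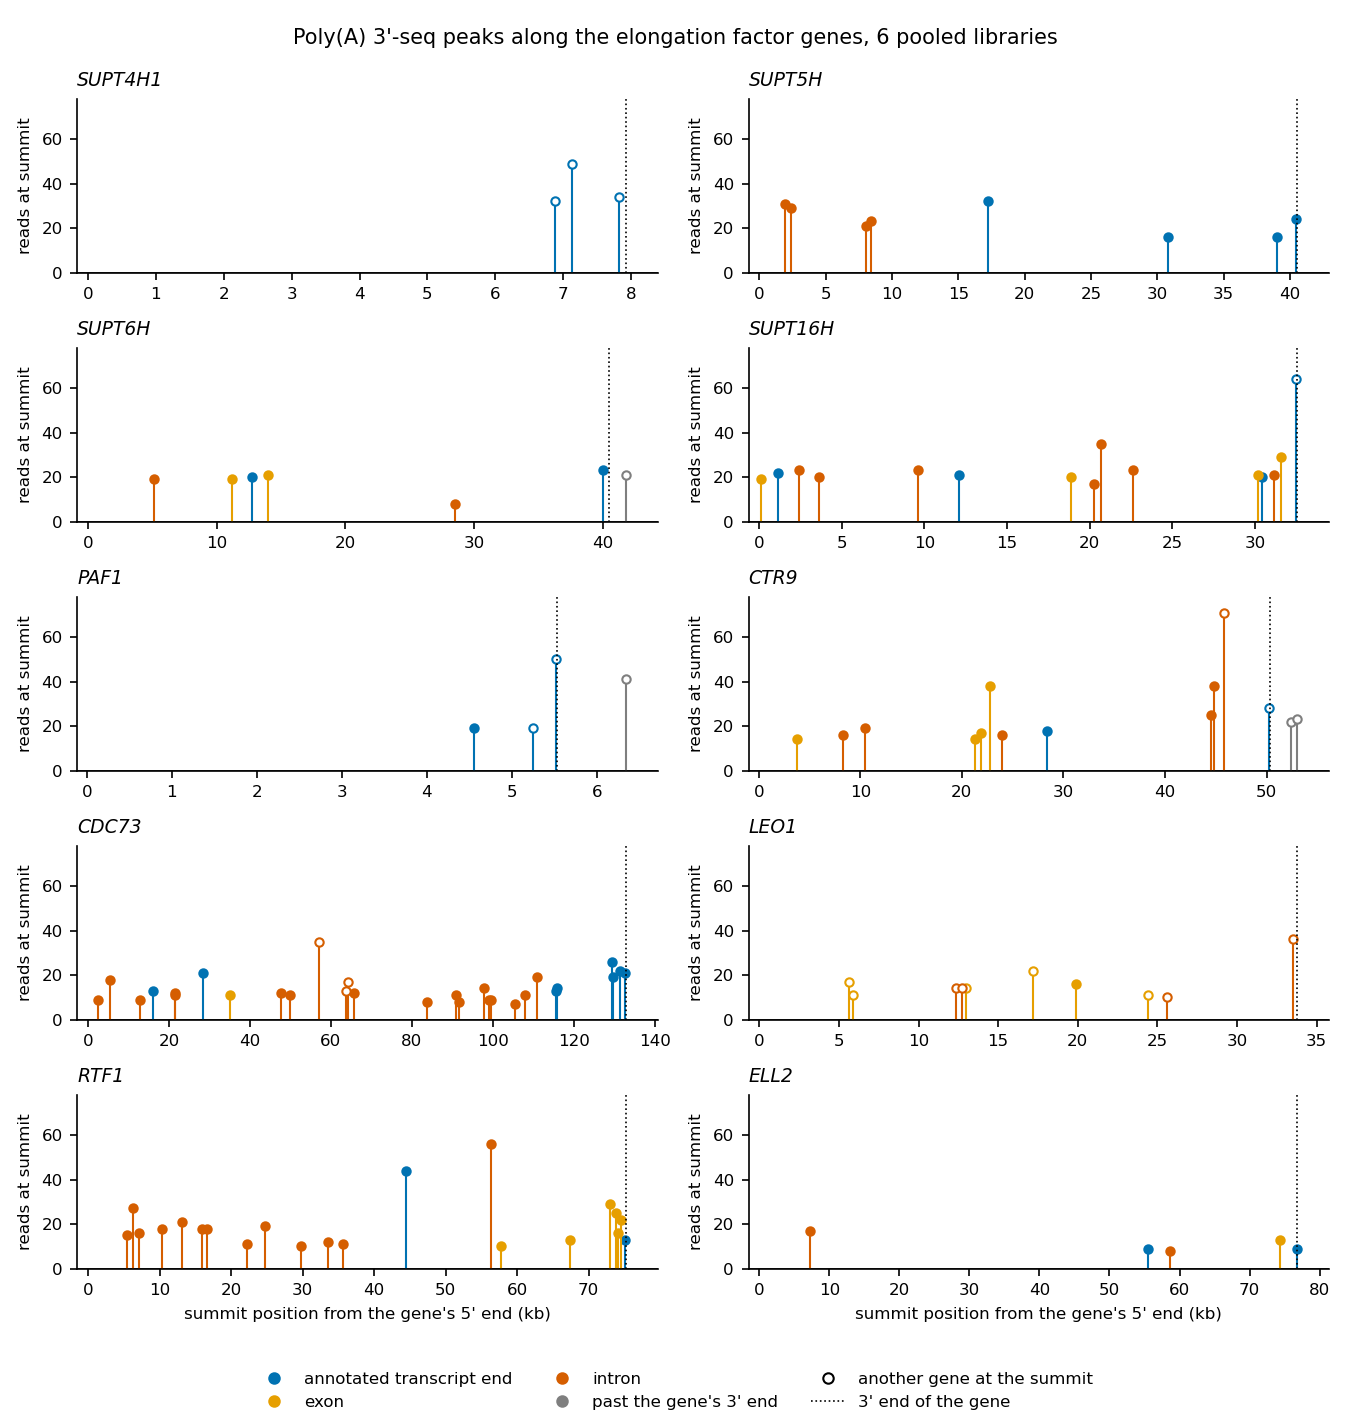
Poly(A) 3′-seq peaks along the 10 genes; the x axis is the summit's distance from the gene's 5′ end in kb, the y axis the reads at the summit in the 6 pooled libraries, colour is the class of the peak, an open circle marks a summit that also lies in or at the end of another gene, and the dotted line is the annotated 3′ end of the gene, which for CTR9 belongs to a nonsense-mediated decay transcript. CDC73 and RTF1 carried peaks along their introns, whereas SUPT4H1 and PAF1 had none classed as intronic.

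SUPT4H1, which encodes SPT4, the small zinc-finger subunit of DSIF, had the simplest pattern. The gene is short (chr17:58345175-58353093, minus strand, 7.92 kb) and its 3 peaks all lay in the last part of the gene, in the 3′ UTR. The canonical end held 34 reads (23.5 to 47.5), and a site 734 bp upstream, at the end of a retained-intron transcript, held 49 reads (36.3 to 64.8) with an AATAAA 37 bp before its edge. A peak 964 bp upstream of the canonical end held 32 reads. The intervals of the proximal and the distal site overlapped. No intronic peak was called in its 5.84 kb of intron, although 1 appeared when peaks below the cutoff on q were kept. The antisense RNA TSPOAP1-AS1 and a readthrough gene on the same strand also covered all 3 summits.

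SUPT5H, which encodes SPT5, the large DSIF subunit and the substrate through which pausing is relieved, had 8 peaks over 40.5 kb (chr19:39436156-39476670, plus strand), 4 at annotated ends and 4 in introns. At the canonical end there were 24 reads (15.4 to 35.7), with the summit 283 bp before the 3′ edge, so the bases before the edge do not show the site of these reads. A taller transcript-end peak of 32 reads (21.9 to 45.2) lay at the end of a short protein-coding transcript, 17.2 kb into the gene, in a coding exon where 82% of the 50 bases around the edge were purines. Its 4 intronic peaks of 31, 29, 21 and 23 reads all lay within the first 8.44 kb of the gene, upstream of the start of the canonical transcript. The tallest, 31 reads (21.1 to 44), had only a GATAAA 12 bp before its edge, from which its summit lay 114 bp away, whereas the 29-read peak (chr19:39438469-39438604) had an AATAAA 24 bp before it. The tallest intronic and transcript-end peaks of SUPT5H therefore differed by 1 read.

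SUPT6H, whose product SPT6 is a histone chaperone that binds the phosphorylated Pol II linker, had no peak at its canonical end, whether classed by summit or by edge. It had 7 peaks over 40.5 kb (chr17:28662198-28702679, plus strand). The tallest, 23 reads (14.6 to 34.5), ended in the 3′ UTR 438 bp before the canonical end, at the AATAAA shown above. A 20-read peak lay at the end of a nonsense-mediated decay transcript 12.8 kb into the gene. The peak past the gene, 21 reads, had its edge 1361 bp beyond the canonical end, in PROCA1, which runs on the opposite strand and whose annotated end lay 25 bp from the other edge of the peak. Both intronic peaks, 19 reads in intron 1 and 8 reads in intron 26, held no hexamer and lay at Alu-like sequence with 70% A in the 20 bases after the edge.

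SUPT16H encodes the large subunit of FACT, which displaces H2A-H2B dimers. It had 15 peaks over 32.5 kb (chr14:21351476-21384019, minus strand), and its canonical end was the tallest transcript-end peak of the 10 genes, 64 reads (49.3 to 81.7), which placed it at the 97.6th percentile of tallest transcript-end peaks among detected genes. The end of RPGRIP1, on the opposite strand, lay 319 bp from the other edge of this peak, and the share of each gene in the reads cannot be told apart. The 7 intronic peaks had 17 to 35 reads. The tallest of them, 35 reads (24.4 to 48.7, chr14:21363079-21363550), had its summit in intron 11, which is only 0.109 kb long, and its 3′ edge lay 254 bp away, in an exon downstream. Another 21-read peak, in the last intron, had its edge 242 bp from the summit and 217 bp inside the last exon. Both are among the 11 peaks whose edge does not mark the reads of the summit. When peaks were classed by the 3′ edge in place of the summit, 5 intronic peaks were left in SUPT16H, and their tallest had 23 reads.

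The PAF complex showed the widest range of patterns. PAF1, which gives the complex its name, is the shortest of the 10 genes (chr19:39385629-39391154, minus strand, 5.53 kb), and its 4 peaks lay in its last part or past it. The canonical end held 50 reads (37.1 to 65.9), with the edge 56 bp past the annotated position, and a site 221 bp upstream held 19 reads with an AATAAA 23 bp before its edge. Another 19 reads lay 902 bp before the canonical end, with the summit in intron 12 after 68.5% of the coding sequence, and were classed as a transcript end because a nonsense-mediated decay transcript ends 49 bp past the edge. The peak past the gene held 41 reads. PAF1 and SAMD4B meet tail to tail and overlap, with SAMD4B ending inside the PAF1 3′ UTR. On the SAMD4B strand, the 50-read peak ended 11 bp after an annotated SAMD4B end and the 41-read peak ended 16 bp before one, with an ATTAAA 37 bp ahead. The list has no strand, so the share of the 50 reads from each gene cannot be told apart. No other peak was called in the 2.68 kb of PAF1 intron.

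CTR9, the tetratricopeptide-repeat scaffold of the complex, is annotated over 50.4 kb (chr11:10751246-10801625, plus strand), but the canonical transcript ends after 28.5 kb and the rest belongs to 1 nonsense-mediated decay transcript that runs into EIF4G2 on the opposite strand. The canonical end held 18 reads (10.7 to 28.4). The tallest peak of all 116, 71 reads (55.5 to 89.6, chr11:10796817-10797340), was intronic in CTR9 by the annotation, but it lay at the 3′ end of EIF4G2, with its edge on that strand 233 bp past the EIF4G2 end. The next peaks, 38 and 25 reads, were 1044 and 1361 bp past the same end. The 28-read peak at the end of the decay transcript and the 2 peaks past it also lay in EIF4G2. Within the canonical transcript, the tallest intronic peak was the 19-read peak of intron 6 (11.4 to 29.7), after 21.1% of the coding sequence, with an AATAAA 20 bp before its edge, and its interval overlapped that of the canonical end. The 50 bases around the edge of this intron 6 peak had 82% purines. The 20 bases after it had 60% A, against 15% at the canonical end. The tallest peak in a coding exon of the 10 genes, 38 reads (26.9 to 52.2, chr11:10773982-10774146), also belonged to CTR9, and 90% of the 50 bases around its edge were purines.

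CDC73, which encodes parafibromin, the subunit that links the complex to histone ubiquitination and a tumour suppressor of the parathyroid, had the most peaks. It is the longest of the 10 genes (chr1:193121983-193254815, plus strand, 133 kb) and had 29 peaks, of which 20 were intronic. The canonical end held 21 reads (13.0 to 32.1). A pair of peaks upstream of it in the 3′ UTR, classed as transcript ends, held more. They had 26 reads (17.0 to 38.1) at 3384 bp and 22 reads at 1235 bp before the canonical end, and all these intervals overlapped. Their edges lay 240 and 254 bp past the nearest annotated ends. The tallest intronic peak, 35 reads (24.4 to 48.7, chr1:193179036-193179165), lay in intron 10 at the 3′ end of B3GALT2, a gene nested on the opposite strand, with an AATAAA 33 bp before its edge on that strand. Without the 3 peaks in B3GALT2, the tallest intronic peak held 19 reads (11.4 to 29.7, intron 13), and its edge lay 59 bp inside the following exon. The tallest with an edge in the intron was the 18-read peak of intron 2 (10.7 to 28.4), after 14.9% of the coding sequence. Intron 10, the longest at 51.4 kb, held 6 peaks, or 0.117 per kb, and intron 13, at 20.5 kb, held 8, or 0.390 per kb.

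The intronic peaks of CDC73 were low but held PAS hexamers. An AATAAA was found within 100 bp before the edge in 9 of the 20, and in 7 of these it started 15 to 30 bp before the edge, as it did at the canonical end (24 bp). Over all protein-coding genes 26.3% of intronic peaks had an AATAAA. Of the peaks of any class with one, 53.4% had it in that range. Over the 29 peaks of CDC73, 12 had an AATAAA on the gene strand and 2 on the opposite strand, and 24 and 18 had any hexamer. The gene had 35.7% GC, at the 2.40th percentile of detected genes, and 121 AATAAA words on its strand. The ratio of U1 recognition words (GGTGAG, as well as GGTAAG, together with GTGAGT, with overlapping matches counted separately) to AATAAA was 0.463, at the 8.23rd percentile. The number of intronic peaks was at the 92.0th percentile among the 628 detected genes of similar length, whose median was 10.

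LEO1, the subunit that pairs with PAF1 at the core of the complex, had 10 peaks over 33.8 kb (chr15:51938025-51971778, minus strand) and none at a transcript end when classed by its summit. Its tallest peak, 36 reads (25.2 to 49.8, chr15:51938024-51938343), was 320 bp wide and ended 1 bp past the canonical end, with the AATAAA shown above 22 bp before the edge, but its summit lay just upstream of the last exon, in intron 11. The summit was 245 bp from that edge, so the 36 reads are not the height of the canonical end, which the list does not give. The other 3 intronic peaks held 14, 14 and 10 reads, and the 6 exonic peaks held 11 to 22. Genes on the opposite strand, MAPK6 and TMOD3, covered 9 of the 10 summits.

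RTF1, which recruits the histone ubiquitination machinery through its histone modification domain, had 21 peaks over 75.2 kb (chr15:41408408-41483563, plus strand), none of them in another gene. Its canonical end held only 13 reads (6.92 to 22.2). Another 4 peaks upstream in the same 3′ UTR held 29, 25, 16 and 22 reads, at 2114, 1265, 1064 and 581 bp before the canonical end, and each had a PAS hexamer 25 to 29 bp before its edge. The 3′ UTR thus held 5 candidate ends in tandem, and the intervals of the lowest and the highest overlapped. The tallest annotated end was in intron 2, 44.4 kb into the gene, where a transcript without a defined coding sequence ends. It held 44 reads (32.0 to 59.1, chr15:41452806-41452946), its interval lay wholly above that of the canonical end, and an AATAAA started 31 bp before its edge. The 50 bases around that edge had 86% purines, and the 20 bases after it had 60% A.
RTF1 end in intron 2, chr15:41452916-41452945, plus strand: AATAAAaataagaagaaaggaaaagccaga

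The tallest peak of RTF1, 56 reads (42.3 to 72.7, chr15:41464680-41464848), had its summit in intron 4, after 31.1% of the coding sequence. It had no AATAAA, only an AAGAAA 23 bp before the edge, and its edge lay 78 bp inside the following coding exon, in a stretch with 88% purines and 65% A in the 20 bases after the edge. This stretch is shown with the hexamer in capitals and 40 bases on each side of the edge.
RTF1 exon after intron 4, chr15:41464809-41464888, plus strand: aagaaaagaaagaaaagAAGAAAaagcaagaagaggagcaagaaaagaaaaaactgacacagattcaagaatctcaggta
Classed by the edge, the tallest intronic peak of RTF1 held 27 reads (17.8 to 39.3), upstream of the canonical start, and no longer exceeded the 44-read end. Of the 13 intronic peaks, 7 lay in intron 1 (21.0 kb), 1 held an AATAAA, and 5 lay at Alu-like sequence. Their number was at the 88.6th percentile of genes of similar length, close to that of CDC73. Any of the 12 hexamers was present in 18 of 20 intronic peaks in CDC73 and 4 of 13 in RTF1, against 57.0% over all protein-coding genes. Over peaks of all classes, 24 of 29 in CDC73 and 12 of 21 in RTF1 held one on the gene strand. On the opposite strand of the same peaks, 18 of 29 in CDC73 and 9 of 21 in RTF1 held one. The difference between these genes was not tested.

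ELL2, the subunit of the super elongation complex that suppresses transient pausing, had the lowest transcript-end peaks. Over 76.8 kb (chr5:95885098-95961851, minus strand) only 5 peaks were called. The canonical end held 9 reads (4.12 to 17.1), and a site 2288 bp upstream in the 3′ UTR held 13. Another 9 reads lay in intron 5, with the edge 271 bp past the end of a transcript without a defined coding sequence. Its tallest transcript-end peak was at the 3.97th percentile of detected genes. Both intronic peaks, 17 reads (9.90 to 27.2) in intron 1 and 8 reads in intron 5, lay at Alu-like sequence, held no hexamer and were followed by 20 A in 20 bases, although the 17-read summit lay 227 bp before its edge. The 2 intronic peaks put ELL2 at the 10.1th percentile for genes of similar length, whose median was 7, whereas RTF1, of nearly the same length, had 13.

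**Figure D2:**
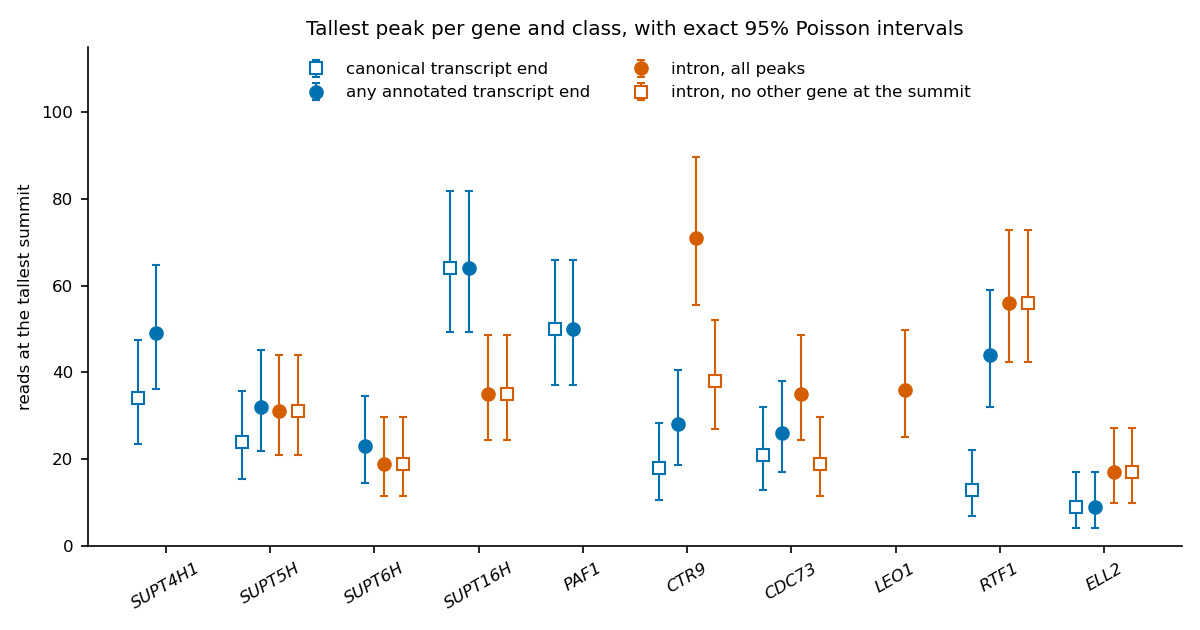
Reads at the tallest summit of each gene (y axis) at the canonical transcript end, at any annotated end, in introns, and in introns with no other gene at the summit, in the 6 pooled libraries; points are single peaks and bars exact 95% Poisson intervals. Intronic peaks were the taller in CTR9, CDC73, RTF1 and ELL2, and that of CDC73 held 19 reads in place of 35 without the peaks in another gene.

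Set side by side, the tallest intronic peak was at least as tall as the tallest transcript-end peak in 4 of the 9 genes that had a transcript-end peak: CTR9, CDC73, RTF1 and ELL2. This was found in 30.5% of 12541 detected protein-coding genes with an intron, where detected means a peak at any annotated transcript end (64.1% of protein-coding genes). The 4 genes did not share 1 kind of peak. Those of CTR9 and CDC73 lay at the end of a gene on the opposite strand, that of RTF1 ended in a coding exon and that of ELL2 had its edge at a run of A. With peaks in other genes left out, CDC73 dropped out and SUPT16H came in, because its 64-read end went with RPGRIP1. CTR9 stayed by its 38-read peak, which lay 1044 bp past the end of EIF4G2. Within its canonical transcript the tallest intronic peak held 19 reads and the canonical end 18, with overlapping intervals. Classed by the 3′ edge, the 3 genes were CTR9, CDC73 and ELL2. The study's filter on A stretches removed the ELL2 peak and left CTR9, CDC73 and RTF1, and without the 11 peaks whose summit was far from the edge 2 genes were left, CDC73 and RTF1. An intronic peak was present in 8 of the 10 genes, 7 of the 9 detected, against 79.7% of detected genes.

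The number of intronic peaks was read against the length of the gene. Over the 10 genes there were 0.134 intronic peaks per kb of intron (0.102 to 0.173), and 0.122 (0.0865 to 0.168) without CDC73. Detected genes as a whole had 0.0862, and the values by quartile of gene length were 0.134, 0.130, 0.114 and 0.0750 from short to long. The densities of the single genes were 0 in SUPT4H1 and PAF1, whose short introns allow up to 0.632 and 1.38 per kb, and ran in the others from 0.0287 per kb in ELL2 (0.00348 to 0.104) to 0.273 in SUPT16H (0.110 to 0.562). Classed by the edge, SUPT16H had 0.195 (0.0633 to 0.455), an interval that overlapped that of ELL2. SUPT16H, with 7 against a median of 3, stood at the 93.4th percentile of its length class by the summit, with 2 of the 7 having their edge in an exon, whereas SUPT6H, with 2 against 4, stood at the 22.8th and SUPT5H, with 4 against 4, at the 52.9th. SUPT5H, SUPT6H, SUPT4H1 and PAF1 had 2.75 to 3.69 U1 words per AATAAA, LEO1 had 1.31, CTR9 had 1.00, and SUPT16H, CDC73, RTF1 and ELL2 had 0.463 to 0.698. The last 4 included the 3 genes with the most intronic peaks for their length and the 1 with the fewest.

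**Figure D3:**
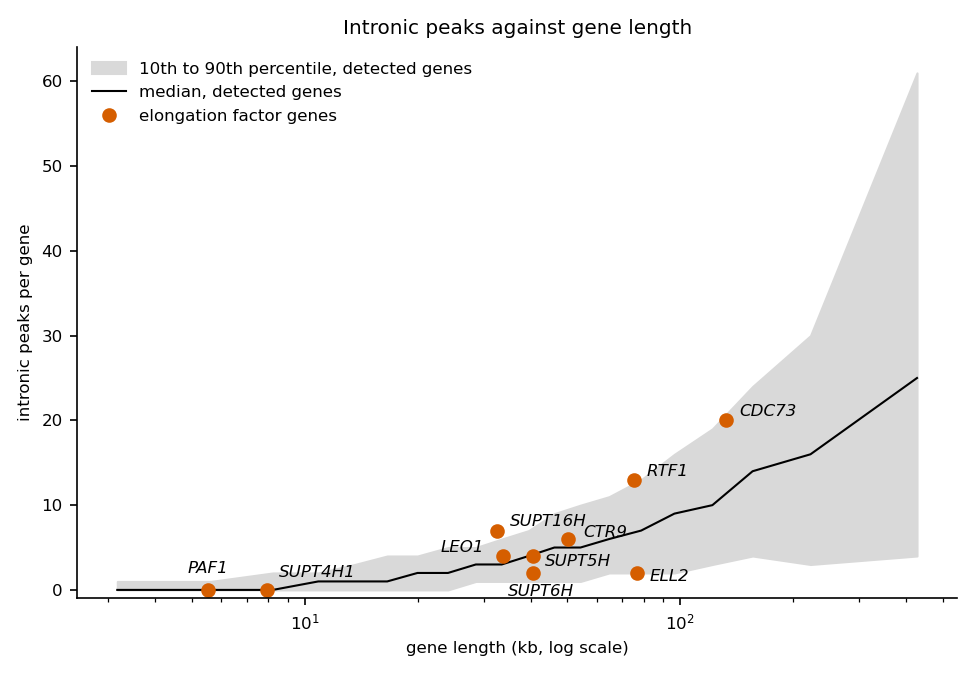
Intronic peaks per gene (y axis) against gene length (x axis, kb, log scale); dots are the 10 genes, the line is the median and the grey band the 10th to 90th percentile of detected protein-coding genes in 20 bins of length. CDC73, RTF1 and SUPT16H lay near the upper bound of the band and ELL2 near the lower one.

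Hexamers were searched because a cleavage site needs a signal upstream. Any of the 12 was present within 100 bp before the edge in 72 of 116 peaks (62.1%, 53.0 to 70.4), against 62.5% over all protein-coding genes. The 12 words together were a weak marker, since 55 peaks (47.4%) had one on the opposite strand and 40 had one on both. AATAAA alone was present less evenly: 35 peaks (30.2%, 22.6 to 39.1) had it on the gene strand and 8 (6.90%, 3.54 to 13.0) on the other, against 30.5% and 12.9% over all protein-coding genes. It started 15 to 30 bp before the edge in 21 of the 35 (60%, 43.6 to 74.4), against 53.4% over all protein-coding genes. On the opposite strand it did so in 1 of the 8 (12.5%, 2.24 to 47.1), against 29.7% over all, and the intervals of the members' 2 strands overlapped. Any hexamer was present in 32 of the 58 intronic peaks (55.2%, 42.5 to 67.3) and 22 of the 30 transcript-end peaks (73.3%, 55.6 to 85.8), against 57.0% and 79.2% over all protein-coding genes. Among intronic peaks AATAAA was present in 16 of 58 (27.6%, 17.8 to 40.2; 26.3% over all genes), with 11 of the 16 in that range, and among transcript-end peaks in 12 of 30 (40%, 24.6 to 57.7), with 7 of 12. CDC73 alone gave 9 of the 16 intronic ones. Of the 21 summits in a 3′ UTR, 20 had a hexamer (95.2%, 77.3 to 99.2) and 12 had AATAAA (57.1%, 36.5 to 75.5), against 84.7% and 51.6% over all protein-coding genes.

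**Figure D4:**
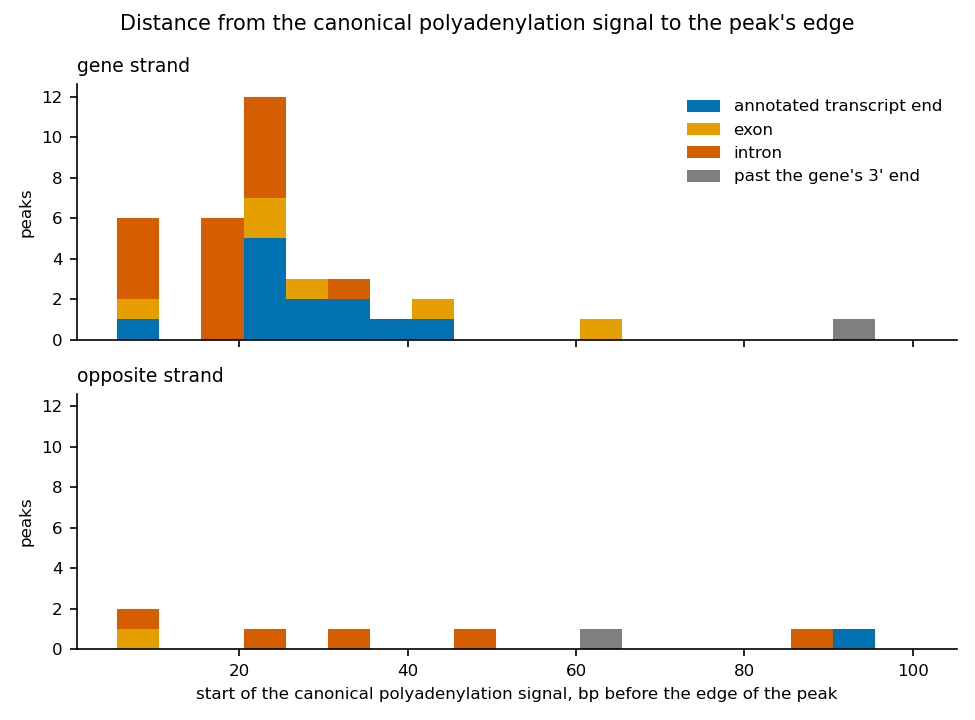
Number of peaks (y axis) by the distance in bp from the start of the canonical polyadenylation signal to the edge of the peak (x axis), on the gene strand (top) and, measured from the other edge, on the opposite strand (bottom), coloured by class. On the gene strand 21 of 35 signals started 15 to 30 bp before the edge, in introns as well as at transcript ends, and on the opposite strand 1 of 8 did, against 53.4% and 29.7% over all protein-coding genes.

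The bases after the edge were compared between intronic peaks with and without a hexamer. Of the 58 intronic peaks, 26 had no hexamer, and the median A content of the 20 bases after their edge was 67.5%, against 40% for the 32 with a hexamer. Over all protein-coding genes the medians were 70% and 55%. At least 75% A was found in 9 of the 26 (34.6%) and 2 of the 32 (6.25%), against 48.2% and 18.6% over all. The word GCCTGGG, which is part of the Alu consensus near its 3′ end, was found on the gene strand in the 100 bp before the edge in 13 of the 58 intronic peaks (22.4%, 13.6 to 34.7), against 16.2% of the intronic peaks of all protein-coding genes. It was present in 11 of the 26 intronic peaks with no hexamer (42.3%) and 2 of the 32 with one (6.25%), 28.0% and 7.33% over all protein-coding genes. None of the 20 intronic peaks of CDC73 held it, but only exact matches were counted. A peak in intron 13 of CDC73 had GCCTAGG in its place and 75% A in the 20 bases after the edge. Under the stricter definition of an A stretch, at least 22 A in 25 bases within 50 bp of the edge, 2 of 116 peaks (1.72%) qualified, against 4.01% over all genes. They lay in intron 1 of RTF1 and intron 1 of ELL2. After leaving out intronic peaks in other genes, those with an edge in an exon or at the transcript end and those with the Alu word, 34 remained, of which 16 were in CDC73, 7 in RTF1, 4 each in SUPT5H and CTR9 and 3 in SUPT16H. Those of CTR9 still included the 38-read and 25-read peaks, which lay 1044 and 1361 bp past the end of EIF4G2. AATAAA was present in 13 of the 34, and started 15 to 30 bp before the edge in 9. CDC73 alone gave 9 of the 13 and 7 of the 9. The selection left out the peaks with the Alu word, of which 2 of 13 held any hexamer. It did not leave out Alu-like sequence in which that word was changed or that lay on the other strand. Its share over all protein-coding genes was not computed, so these counts have no background beside them.

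Some peaks ended in coding exons. There were 18 summits in a coding exon, over 7 of the genes, and their median purine content in the 50 bases around the edge (30 before it, 20 after it) was 66%, the same as for the 5863 coding-exon peaks of all protein-coding genes and above the 44% of the members' 3′ UTR peaks. AATAAA was present in 2 of the 18 (11.1%, 3.10 to 32.8), against 15.9% over all. An edge in an exon was found for 5 of the 58 summits classed as intronic (8.62%, 3.74 to 18.6), against 2.29% over all genes, and these 5 included the tallest intronic peaks of RTF1 and SUPT16H. Over the 18 and the 5 together, 23 peaks, the 4 tallest held 56 reads in RTF1, 38 in CTR9, 35 in SUPT16H and 32 in SUPT5H, and the purine contents at their edges were 88%, 90%, 66% and 82%. At least 75% purines was found in 4 of the 23 (17.4%, 6.98 to 37.1), against 19.4% over all genes.

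The other elongation genes, a list of 24 that holds the rest of FACT, the WD-repeat PAF subunit, NELF, TFIIS, elongin, further super elongation complex subunits and 7SK regulators among others, gave the comparison. All 24 had a transcript-end peak, against 64.1% of protein-coding genes. A canonical-end peak was found in 23, against 69.6% of protein-coding genes with any peak. The median of the tallest transcript-end peak was 34 reads, against 32 in the members and 25 over all detected genes. Intronic peaks were called in 20 of the 24, 105 in all, against 79.7% of detected genes with an intron. HEXIM1, in the list of 24, has no intron and could not have one. SSRP1, the partner of SUPT16H in FACT, held 52 reads at its canonical end and 1 intronic peak of 22 reads. SKIC8, that WD-repeat subunit of the human PAF complex, held 30 reads at its canonical end and at most 15 in an intron. ELL, the founding paralog of ELL2, held 29 reads at its canonical end and at most 16 in its introns, and ELL3 held 17 and 20 reads, the latter at a summit that another gene also covers. The other genes whose tallest intronic peak reached that of the transcript end were TCEA1, which encodes TFIIS, with 41 against 36 reads, its paralog TCEA2 with 39 against 21, and MLLT3, a super elongation complex subunit, with 26 against 26. With ELL3 these made 4 of the 24, against 30.5% of detected genes with an intron. Classed by the 3′ edge, the tallest intronic peak of TCEA1 fell to 17 reads and ELL3 had none.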

How the data were processed

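Poly(A) 3′-seq libraries had been made from 6 samples of IMR-32 cells. Per the study's methods, the authors mapped trimmed reads to GRCh38 with STAR 2.5.1b, keeping up to 20 placements per read, merged all samples (not listed, and taken here to be these 6) and called peaks once with MACS2 2.1.1, extending reads to 100 bp, with no control. The deposited list gives for each peak, with no strand, a fold enrichment (a ratio of pileup plus 1 to background plus 1), a −log10 p-value and a −log10 q-value at the summit, and a score that is the −log10 q-value times 10 and was not used. As nothing in it belongs to a single library, no groups were compared.

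The pileup at each summit was solved from the fold and the p-value. On 19567 simulated peaks 99.99% were recovered, and the largest misfit of −log10 p in the list was 0.000172. Coordinates are 1-based. Annotation was Gencode 44 (the study used 27), and U1 and PAS words were counted in the reference genome. Each summit was classed by its own gene in the order transcript end (200 bp before to 600 bp after any annotated end), exon, intron and downstream. Another gene at the summit means its body or the window at its end. For each gene the tallest peak at the canonical end, taller annotated ends and the tallest intronic peak were named. Percentiles describe these libraries. The members, the gene lists and the tests were chosen with earlier results of these data known, and the Alu word, purine content and class by the edge after values were seen. Python 3.11.15, pandas 2.3.3 and scipy 1.17.1 were used. Overlapping genes and paralogs were not separated. Alternatives were other cutoffs on q, other class rules, other hexamer and A-stretch rules and the study's filter on A stretches.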

Additional observations from a re-analysis of the deposited data

How the results depend on the processing

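Of 68 recomputed values, 50 stayed within the interval of the value reported, or within 1.5 times of a count. At −log10 q of at least 20, 14 peaks were left, with 42.9% at transcript ends, 35.7% in introns, a hexamer in 78.6% of all and 100% of the intronic ones, and an A stretch in 0. At that cutoff 5 genes kept an intronic peak, 1 gene (RTF1) had one at least as tall as its tallest transcript end, and there were 0.0115 intronic peaks per kb. The transcript-end share was 16.4% with a window of 100 bp on either side and 6.90% with the canonical transcript only. The downstream share was 0 of 92 peaks without those in another gene, which allows up to 4.01%. With AATAAA only, 30.2% of all and 27.6% of intronic peaks had the signal, and with a window that ends at the summit 42.2% of all peaks had a hexamer. An A stretch was found in 9.48% of peaks with at least 18 A and in 7.76% with both sides of the edge searched. Classing by the 3′ edge, chosen after the data were seen, kept each result within its interval or 1.5 times, but removed RTF1 from the genes whose tallest intronic peak reached the tallest transcript end. Without the 11 peaks whose summit was over 100 bp from the edge, also chosen after the data were seen, 2 genes were left there (CDC73 and RTF1). Apart from the smaller number of peaks at the stricter cutoff on q, the cause was not tested.

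Heights saturate and pool DMSO with THZ531, so a peak that was not called was not detectable at this depth and is not shown to be absent. Multiply mapped reads were not removed, and counts at repeats were not separated by locus. No paired analysis was possible because no value belongs to a single replicate, and for the same reason no replicate was left out.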

Other observations

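The strongest intronic peaks of these genes were of a mixed kind. At −log10 q of at least 20 there were 5: 71 reads in CTR9, 56 in RTF1, 36 in LEO1, and 35 each in CDC73 and SUPT16H. In 3 of the 5 another gene covered or ended at the summit, and in 3 of the 5 the 3′ edge lay in an exon or at the transcript end, LEO1 being counted in both. In CTR9, LEO1 and SUPT16H the summit was over 100 bp from that edge. None of the 5 had its edge in the intron and its summit outside other genes. Of all 58 intronic peaks, 45 met both conditions, with 7 to 38 reads and a median of 16. No share over all protein-coding genes stands beside these counts, so they are not shown to be particular to these genes. The 38 reads belong to the CTR9 peak 1044 bp past the end of EIF4G2.

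CDC73 and RTF1, which both stood near the upper bound for their length in intronic peaks, differed in the bases after the edge. The median A content of the 20 bases after the edge was 40% over the 20 intronic peaks of CDC73 and 60% over the 13 of RTF1. It was 70% over the 7 of SUPT16H, which stood near the same bound. Among the genes with intronic peaks it ran from 32.5% in SUPT5H to 100% in ELL2, with 42.5% in CTR9. Over all protein-coding genes the medians were 55% for intronic peaks with a hexamer and 70% for those without. The pair was chosen after its values were seen, the peaks share 1 pool of libraries, and the difference was not tested.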
